A study of Homo sapiens with 12 samples.

Results

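Receptors for glutamate, GABA, glycine and acetylcholine are described here at the level of their mRNAs. They comprise ligand-gated ion channels (ionotropic glutamate, GABA-A, glycine and nicotinic acetylcholine receptors) and receptors that act through G proteins (metabotropic glutamate, GABA-B and muscarinic acetylcholine receptors). The members were all rows of the deposited table whose gene symbol follows the naming of these families, without use of any measured value. This gave 73 of 27514 genes: 18 ionotropic glutamate, 8 metabotropic glutamate, 19 GABA-A, 2 GABA-B, 5 glycine, 16 nicotinic and 5 muscarinic receptor genes.

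The cells were IMR32, an established line of human neuroblastoma with an amplified MYCN gene, and RNA of 12 samples was sequenced. All groups were electroporated with small interfering RNA (siRNA) and kept for 72 h in serum-containing medium, and each group has 3 samples. One group was given a control siRNA (siCtrl) and another an siRNA to MYCN (siMYCN, titled SiMYCN_2). HAND2 was targeted in a further group (siHAND2, titled SiHAND2_3) and both genes in the last (the combined knockdown, titled SiM2+SiH2_3). The labels name 1 siRNA for each single knockdown and give neither a sequence nor an amount, so effects of an siRNA other than through its target cannot be told apart from effects of the target. They also do not say whether samples of a group came from separate cultures, so p-values measure the spread between these samples.

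MYCN and HAND2 encode transcription factors of the basic helix-loop-helix kind, and both are active in cells of the sympathetic lineage from which neuroblastoma arises. Sympathetic neurons receive acetylcholine from preganglionic fibres, chiefly through nicotinic channels built from the subunits encoded by CHRNA3, CHRNB4 and CHRNA5, while muscarinic receptors modulate the response more slowly. Ionotropic receptors are assemblies of several subunits, so the set of subunit genes that a cell transcribes limits which channels it can build.

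Values are CPM (the reads of a gene scaled to the depth of its library). Depth, estimated from the steps between low values, was 31.6 to 64.2 M reads per sample, and 3 reads corresponded to 0.0468 to 0.0949 CPM. Listed genes took 65.1% ± 0.736 (SD, n = 3, as for every mean given below) of the reads in siCtrl. The corresponding shares were 62.4% ± 0.979 for siMYCN, 59.4% ± 2.39 for siHAND2 and 51.4% ± 7.04 for the combined knockdown, where replicate 3 was lowest at 44.3%. The median log2 change over all tested genes against siCtrl was 0.01 for siMYCN, -0.14 for siHAND2 and -0.28 for the combined knockdown, so each change was also computed after dividing each sample by its median ratio to all samples (median ratio rescaling). MYCN stood at 67.5%, 84.1% and 47.7% of its siCtrl mean in siMYCN, siHAND2 and the combined knockdown, and HAND2 at 136%, 26.0% and 30.7%. After median ratio rescaling MYCN stood at 68.0%, 93.9% and 61.0% in the same order, and HAND2 at 137%, 29.1% and 39.2%. Of 10 sympathoblast markers 9 reached a mean of 1 CPM (TH, the enzyme that starts catecholamine synthesis, did not), against 1 of 8 markers of Schwann cells and glia, 3 of 8 mesenchymal markers (PRRX1 stood at 0), 1 of 6 of blood and endothelium (HBB and CD3E stood at 0) and 1 of 5 of skeletal muscle. The summed mesenchymal markers spanned 33.4 to 41.3 CPM in siCtrl, 32.9 to 38.4 in siMYCN, 18.0 to 23.3 in siHAND2 and 13.0 to 19.6 in the combined knockdown. The part of this fall in the receptor changes was not tested. In bulk RNA, fewer cells of a kind and less RNA per cell cannot be told apart.

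Of the 73 receptor genes, 31 had a mean of at least 1 CPM over the 12 samples and were tested, and 42 were not. The tested genes were 8 nicotinic, 3 muscarinic, 9 ionotropic glutamate, 3 metabotropic glutamate, 4 GABA-A, 2 GABA-B and 2 glycine receptor genes. All 4 group means reached 1 CPM for 25 of them. GRIA2 and GRIA4 passed only through their knockdown groups, with siCtrl means of 0.868 ± 0.0333 and 0.95 ± 0.191 CPM. GABBR2, with a mean of 1.20 CPM over all samples, passed only through its siHAND2 samples. GABRA4, GABRA6, GABRR3, GLRA3 and CHRNB3 were listed at 0 in all samples.

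Divided by the length of the canonical transcript (CPM per kb, GENCODE release 44 on GRCh37), the siCtrl level was highest for CHRNA3 at 124. The nicotinic subunits CHRNB4, CHRNA5 and CHRNB2 stood at 19.3, 16.3 and 11.1. GABRA5 stood at 6.32 CPM per kb. GABRA3 stood at 2.58 CPM per kb, and the most abundant glutamate receptor genes were GRIK2 at 2.34, GRID1 at 2.23 and GRIK3 at 2.15. Thus subunits of the ganglionic nicotinic receptor were among the most abundant receptor transcripts of control IMR32 cells. A GABA-A receptor of the common synaptic kind also needs a γ subunit, and GABRG1 and GABRG3 had means of 0.116 and 0.749 CPM over all samples, under the limit for testing.

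**Figure D1:**
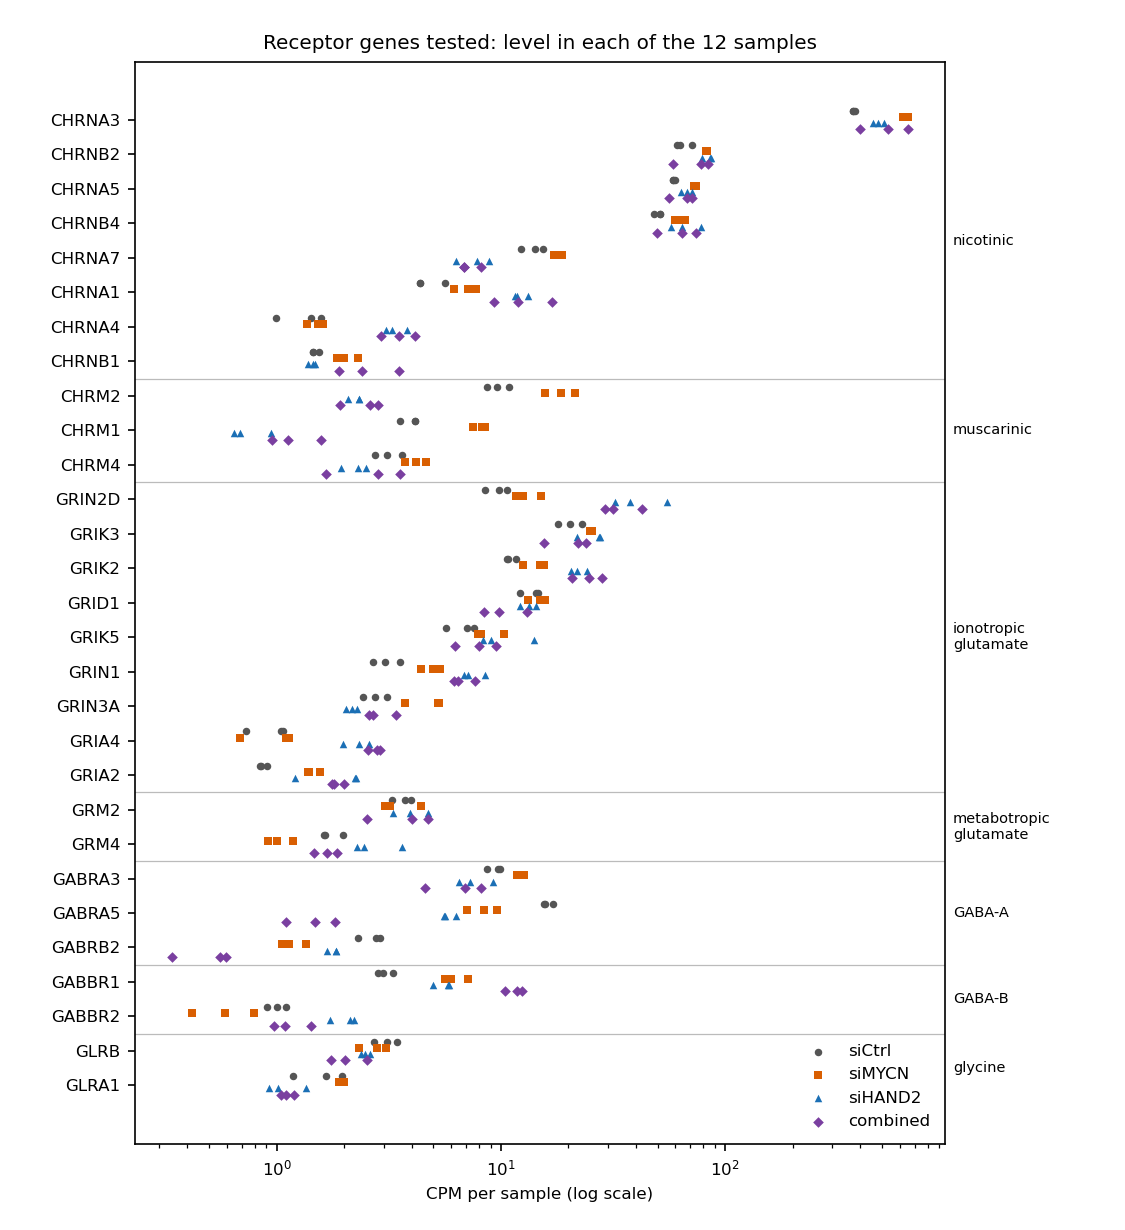
Level of 29 of the 31 tested receptor genes in each of the 12 samples, in CPM on a log axis, grouped by receptor class and ordered by the mean over all 12 samples within a class. CHRNA3 lies above all other genes shown in every group, and the muscarinic genes CHRM1 and CHRM2 split into high siMYCN and low siHAND2 and combined knockdown samples.

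A gene was termed called where its limma p, after Benjamini-Hochberg adjustment over all 12680 tested genes, was under 0.05. Against siCtrl, 18 of the 31 receptor genes were called in siMYCN, 15 higher and 3 lower, where 33.7% of all tested genes were called (17.4% higher and 16.3% lower). In siHAND2, 20 were called, 14 higher and 6 lower, against 42.7% of all genes (12.3% higher and 30.4% lower). In the combined knockdown 21 were called, 11 higher and 10 lower, which as a share is close to the 67.4% of all genes (17.4% higher and 50.1% lower). After median ratio rescaling 22 receptor genes were called in each comparison. They were 18 higher and 4 lower in siMYCN (all genes 47.8%, with 25.4% higher and 22.4% lower), 16 and 6 in siHAND2 (50.8%, with 26% and 24.8%), and 17 and 5 in the combined knockdown (70.7%, with 37.8% and 32.9%). The median log2 change of the 31 genes was 0.33, 0.19 and 0.04 in the order siMYCN, siHAND2 and combined. GRIA2 and GRIA4 owed their place among the tested genes to the groups in which they were high. Without both, the counts over the other 29 were 14 higher and 3 lower, 12 and 6, and 9 and 10, with medians of 0.33, 0.09 and 0.00. These 29 still include GABBR2, which was called higher in siHAND2 and passed the filter only through that group. On the log2(CPM + 1) scale none of the 31 changed by an absolute value of 1 or more in siMYCN, where a pseudocount of 0.1 gave 1.02 for CHRM1, 1.01 for GABBR1 and -1.11 for GABRB2, whereas 6 did in siHAND2 (CHRM1, CHRM2 and GABRA5 lower, CHRNA1, GRIN1 and GRIN2D higher) and 8 in the combined knockdown. In the combined knockdown CHRM1, CHRM2, GABRA5 and GABRB2 were lower and CHRNA1, GABBR1, GRIK2 and GRIN2D higher by that measure. All genes passed this size at 2.29%, 4% and 16.6% in the same order.

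**Figure D2:**
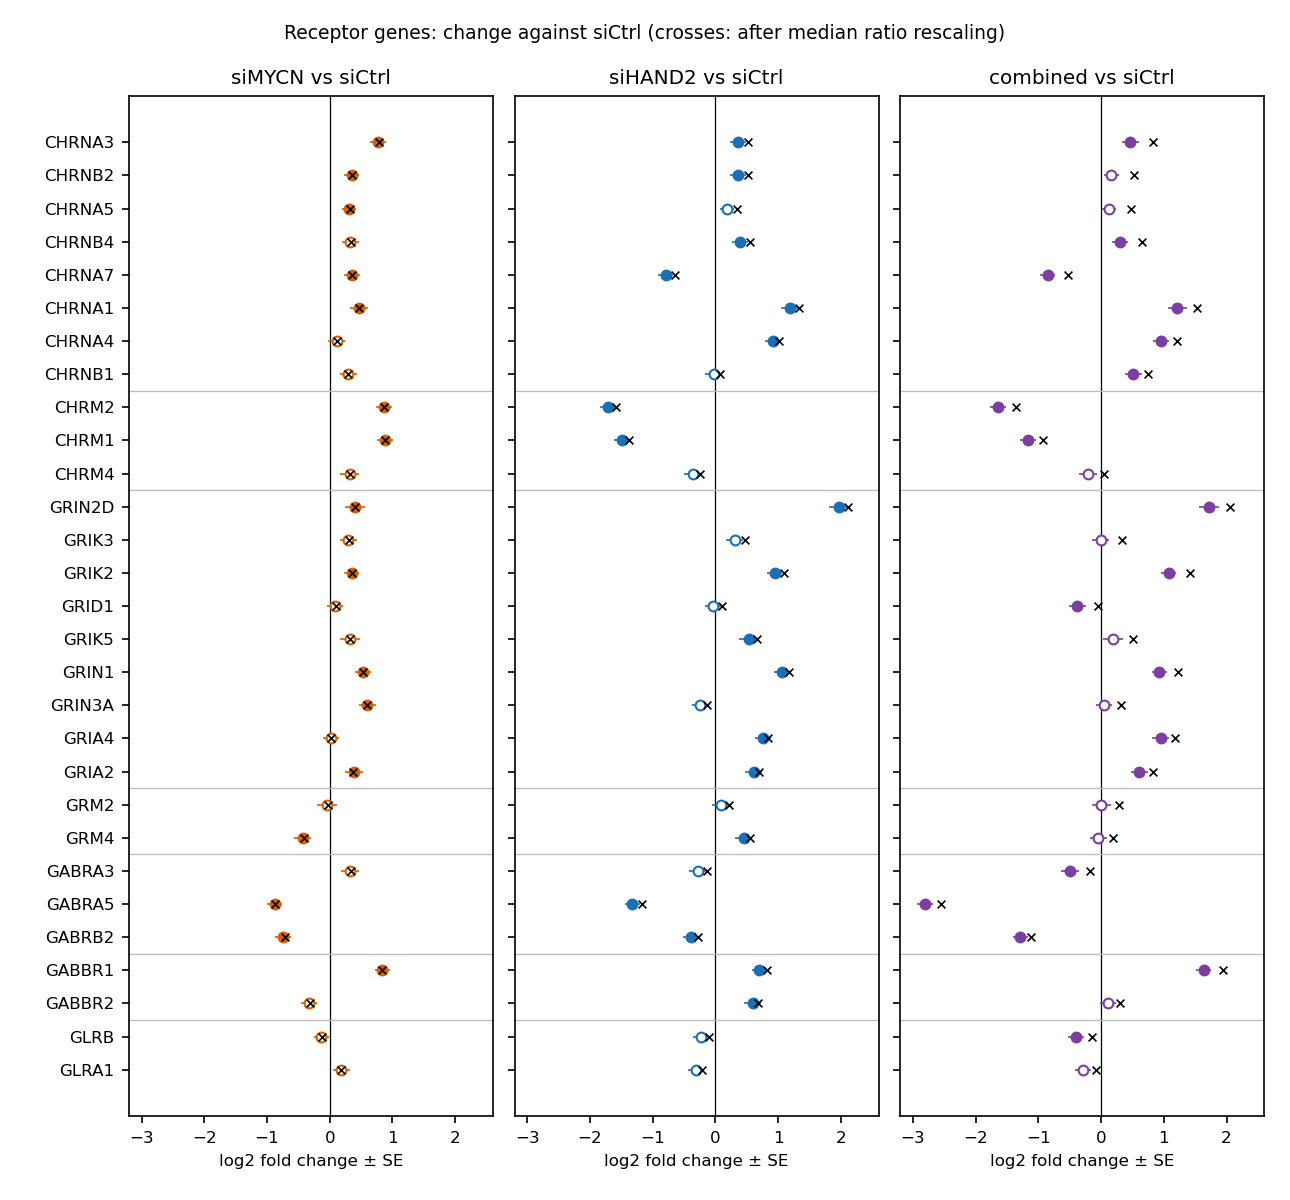
Change of 29 of the 31 tested receptor genes against siCtrl, as log2 fold change on the log2(CPM + 1) scale with its standard error. Filled circles passed the adjusted p threshold, open circles did not, and crosses give the value after median ratio rescaling, which shifts the combined knockdown to the right and turns the near-zero change of GRIK3 from -0.01 to 0.34.

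Called higher in all 3 knockdowns were CHRNA1, CHRNA3, GABBR1, GRIK2, GRIN1 and GRIN2D, and also GRIA2, which had passed the filter only through its knockdown groups. The GABA-A subunit genes GABRA5 and GABRB2 were lower in all 3. CHRM1, CHRM2 and CHRNA7, which encode receptors for acetylcholine, were higher in siMYCN and lower in both siHAND2 and the combined knockdown. GRM4 had the opposite calls in the single knockdowns, lower in siMYCN and higher in siHAND2. CHRM4, GLRA1, GRIK3 and GRM2 were not called in any of these 3 comparisons, all of which use the same siCtrl samples.

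Because CHRM1, CHRM2 and CHRNA7 moved in opposite directions under the 2 siRNAs, the 250 bases before their annotated starts are shown, with GRIN2D, the receptor gene with the largest rise in siHAND2, beside them. The sequences are from RefSeq (GRCh38.p14), 5′ to 3′ on the strand of the gene. Capitals mark CACGTG, the E-box bound by MYC family dimers, or CATCTG on either strand, which also reads CAGATG, an E-box form known for HAND proteins. CHRM1 lies at chr11:62921364-62921613 on the minus strand and GRIN2D at chr19:48393418-48393667 on the plus strand, and neither window held either motif. CHRM2, at chr7:136868402-136868651 on the plus strand, held CAGATG 197 bases before the start. CHRNA7, at chr15:32030233-32030482 on the plus strand, held CACGTG 49 bases before the start.
CHRM1: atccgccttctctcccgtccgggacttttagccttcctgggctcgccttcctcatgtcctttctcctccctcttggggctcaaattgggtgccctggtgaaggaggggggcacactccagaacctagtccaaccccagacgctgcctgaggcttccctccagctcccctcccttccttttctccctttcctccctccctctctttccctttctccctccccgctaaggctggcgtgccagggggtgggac
CHRM2: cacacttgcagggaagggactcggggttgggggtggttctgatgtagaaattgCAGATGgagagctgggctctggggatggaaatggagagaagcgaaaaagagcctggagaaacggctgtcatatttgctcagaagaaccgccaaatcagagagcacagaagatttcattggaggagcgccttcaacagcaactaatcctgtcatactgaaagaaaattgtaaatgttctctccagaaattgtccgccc
CHRNA7: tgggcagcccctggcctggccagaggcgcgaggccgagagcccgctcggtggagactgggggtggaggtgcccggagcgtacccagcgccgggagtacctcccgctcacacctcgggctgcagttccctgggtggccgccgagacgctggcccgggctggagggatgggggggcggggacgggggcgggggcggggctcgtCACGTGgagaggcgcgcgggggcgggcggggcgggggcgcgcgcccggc
GRIN2D: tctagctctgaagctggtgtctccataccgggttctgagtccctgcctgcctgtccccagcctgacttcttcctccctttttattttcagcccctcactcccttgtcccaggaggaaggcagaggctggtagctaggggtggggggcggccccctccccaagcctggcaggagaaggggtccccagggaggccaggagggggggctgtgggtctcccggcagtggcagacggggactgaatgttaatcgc

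The table of promoters had 75 entries for 53 of the receptor genes, some genes having several starts, and CHRM2 had 2 other entries without either motif. The MYC-type E-box was present in 3 of the 75 (4%), which were CHRNA7 at a pair of starts and GRM4, against 6.34% of all 35116 promoter windows of that length, and in 3 of the 33 entries of tested receptor genes (9.09%). The HAND-type E-box was present in 7 of the 75 (9.33%) and 3 of the 33 (9.09%), against 12.2% of all. The general E-box CANNTG, which includes both, was present in 56% of the 75, 42.4% of the 33 and 61.8% of all. A match to these letters is a description and is no evidence of binding.

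Muscarinic receptors showed the widest split between the single knockdowns. CHRM1 (chromosome 11, 62676151 to 62689013, minus strand, hg19) encodes the M1 receptor, which couples to phospholipase C. Its levels were 4.16, 4.15 and 3.54 CPM in siCtrl, 8.26, 7.48 and 8.52 in siMYCN, 0.949, 0.647 and 0.691 in siHAND2 and 1.12, 1.58 and 0.951 in the combined knockdown. All siMYCN samples lay above and all siHAND2 and combined samples below the siCtrl samples. The log2 change was 0.88 ± 0.13 (SE, adjusted p = 6.5e-06) in siMYCN, -1.49 ± 0.13 (adjusted p = 6.9e-10) in siHAND2 and -1.17 ± 0.13 (adjusted p = 9.8e-09) in the combined knockdown.

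CHRM2 (chromosome 7, 136553399 to 136701772, plus strand) encodes the M2 receptor, which couples to inhibitory G proteins. It was measured at 9.58, 10.8 and 8.70 CPM in siCtrl, 18.5, 21.4 and 15.7 in siMYCN, 2.34, 2.32 and 2.07 in siHAND2 and 2.6, 2.82 and 1.93 in the combined knockdown. The siHAND2 and combined ranges overlapped, and both lay under every siCtrl sample, while every siMYCN sample lay above. On the log2 scale it changed by 0.86 ± 0.13 (adjusted p = 9.6e-06), -1.72 ± 0.13 (adjusted p = 7.3e-11) and -1.64 ± 0.13 (adjusted p = 2.5e-11) in the same order. LOC349160 overlaps CHRM2 on the other strand with a mean of 0.327 CPM, and whether counting was stranded is not given in the sources used here.

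CHRM4, the M4 receptor gene, had means of 3.17 ± 0.448, 4.19 ± 0.451, 2.25 ± 0.284 and 2.68 ± 0.956 CPM in siCtrl, siMYCN, siHAND2 and the combined knockdown and was not called against siCtrl. Its siHAND2 fall was called in 4 of 15 alternatives, among them the replicate block, and its siMYCN rise in 2. The combined change ran from -0.38 to 0.19 over the alternatives and was called in 1, without combined replicate 1. Compared directly, CHRM1, CHRM2 and CHRM4 were all higher in siMYCN than in siHAND2, by log2 values of 2.37, 2.58 and 0.68 (adjusted p = 7.5e-14, 1.9e-14 and 0.001). Summed over the 5 muscarinic genes, levels were 17.0 CPM (siCtrl), 31.1 (siMYCN), 5.55 (siHAND2) and 6.58 (combined knockdown). CHRM3 and CHRM5 contributed little to it, with means of 0.0876 and 0.160 CPM over all samples.

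Among the subunits of the ganglionic nicotinic receptor the changes were rises of modest size. CHRNA3 (chromosome 15, 78885395 to 78913638, minus strand), the α3 subunit gene, stood at 371, 380 and 371 CPM in siCtrl, 654, 638 and 622 in siMYCN, 509, 478 and 454 in siHAND2 and 650, 534 and 400 in the combined knockdown. The siCtrl samples lay below all others, and the combined samples spanned a range that overlapped both single knockdowns. Its log2 change was 0.77 ± 0.13 in siMYCN (adjusted p = 8.1e-05), 0.36 ± 0.13 in siHAND2 (adjusted p = 0.033) and 0.47 ± 0.13 in the combined knockdown (adjusted p = 0.0035), where rescaling gave 0.83. Without combined knockdown replicate 1 the value was 0.30, and the siHAND2 call was lost on leaving out any siCtrl sample or siHAND2 replicate 1 or 2 (adjusted p = 0.064 to 0.11).

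The other subunit genes of these channels changed by log2 values of at most 0.39 as deposited. CHRNB4, the β4 subunit, had means of 50.1 ± 1.66, 63.3 ± 3.08, 66.5 ± 10.6 and 62.6 ± 12.1 CPM in siCtrl, siMYCN, siHAND2 and the combined knockdown. It rose in siHAND2 by 0.39 (adjusted p = 0.02) and in the combined knockdown by 0.30 (adjusted p = 0.048, rescaled 0.65), a value of 0.17 without combined replicate 1 and 0.45 without combined replicate 3. In siMYCN its change of 0.33 was not called (adjusted p = 0.056) and passed when the replicate number entered as a block (adjusted p = 0.014), among other settings. That fit called 38.8% of all genes. CHRNA5, an accessory subunit, rose in siMYCN from 59.1 ± 0.808 to 73.3 ± 0.762 CPM (log2 0.31, adjusted p = 0.034) and stood at 67.5 ± 3.81 in siHAND2 and 64.9 ± 7.80 in the combined knockdown, neither called as deposited and both called after rescaling (log2 0.34 and 0.48) and the latter also without combined replicate 3 (log2 0.23). CHRNB2, a β subunit of both ganglionic and brain nicotinic receptors, rose from 64.9 ± 5.17 to 82.7 ± 0.677 in siMYCN (log2 0.35, adjusted p = 0.03) and 83.6 ± 4.52 in siHAND2 (log2 0.36, adjusted p = 0.019), and at 73.4 ± 13.0 in the combined knockdown it was called after rescaling (log2 0.52) and without combined replicate 3 (log2 0.31).

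These smaller calls were often lost in fits with 1 sample fewer, while most of the values moved little. The CHRNA5 call in siMYCN was lost on leaving out any 1 of the 6 samples (adjusted p up to 0.106), with log2 changes of 0.30 to 0.32. For CHRNB2 it was lost in 5 of 6 such fits in siMYCN, all but that without siCtrl replicate 2 (0.31 to 0.41 over the 6), and in 4 of 6 in siHAND2 (without siCtrl replicate 1 or 3 or siHAND2 replicate 1 or 2), where the values ran from 0.32 to 0.42. For CHRNB4 it was lost without siCtrl replicate 3 or siHAND2 replicate 1 in siHAND2 (0.27 to 0.49 over the 6), and in 5 of 6 fits in the combined knockdown, all but that without combined replicate 3. All these fits shared 1 estimate of the spread over the 4 groups. With the compared groups fitted by themselves, the named CHRNA5 and CHRNB2 calls and the siHAND2 call of CHRNB4 held. The combined call of CHRNB4 was lost.

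CHRNA3 and CHRNA5 overlap by 2218 bases on opposite strands, and CHRNB4 begins 2997 bases beyond CHRNA3. Reads of the overlap may have been given to either gene, so the smaller changes of CHRNA5 are uncertain beside the higher counts of CHRNA3.

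The remaining neuronal subunits went separate ways. CHRNA7 (chromosome 15, 32322686 to 32462385, plus strand), which forms homomeric channels of high calcium permeability, had means of 14.0 ± 1.58, 18.1 ± 0.786, 7.68 ± 1.28 and 7.29 ± 0.772 CPM. It rose in siMYCN by 0.36 ± 0.12 (adjusted p = 0.025) and fell in siHAND2 by 0.79 ± 0.12 (adjusted p = 8.8e-06) and in the combined knockdown by 0.85 ± 0.12 (adjusted p = 9.2e-07, rescaled -0.53). The siMYCN call was lost without siCtrl replicate 2 or 3 or siMYCN replicate 2 or 3 (adjusted p up to 0.149, log2 0.27 to 0.43 over the 6 fits). CHRFAM7A, a partial copy of CHRNA7, stood at 1.91, 3.07, 1.22 and 1.09 CPM, and reads of the shared part may be split between the genes, so the CHRNA7 values are uncertain. CHRNA4, a subunit of the main brain nicotinic receptor, was at 1.33 ± 0.304 and 1.5 ± 0.123 CPM in siCtrl and siMYCN and rose to 3.39 ± 0.394 (siHAND2) and 3.53 ± 0.610 (combined), with log2 changes of 0.92 and 0.96 (adjusted p = 3.2e-06 and 4.7e-07).

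Subunits of the muscle nicotinic receptor were also transcribed. CHRNA1 (chromosome 2, 175612323 to 175629201, minus strand), its acetylcholine-binding α1 subunit, stood at 4.38, 4.36 and 5.65 CPM in siCtrl, 7.15, 6.18 and 7.72 in siMYCN, 11.6, 11.7 and 13.2 in siHAND2 and 16.9, 12.0 and 9.34 in the combined knockdown. No knockdown sample reached down to the siCtrl range, and the combined samples lay on both sides of the siHAND2 samples. The log2 change was 0.47 ± 0.15 (adjusted p = 0.015), 1.19 ± 0.15 (adjusted p = 4e-07) and 1.22 ± 0.15 (adjusted p = 6.8e-08), and the siMYCN call was lost without siCtrl replicate 1 or 2 or siMYCN replicate 3 (adjusted p up to 0.0711, log2 0.41 to 0.57 over the 6 fits).

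CHRNB1, the β1 subunit, was at 1.48 ± 0.0515, 2.05 ± 0.223, 1.44 ± 0.0531 and 2.61 ± 0.820 CPM and was called only in the combined knockdown (log2 0.51, adjusted p = 0.0017, 0.34 without combined replicate 1). After rescaling it was also called in siMYCN (adjusted p = 0.031). The genes of the other muscle subunits were not tested: CHRND had group means of 0.383, 0.166, 1.05 and 0.322 CPM, CHRNG 0.782, 0.712, 1.03 and 1.13, and CHRNE at most 0.153. With a lower limit of 0.2 CPM and a pseudocount of 0.1, CHRND was called lower in siMYCN (log2 -0.85) and higher in siHAND2 (log2 1.27). That fit called 29.9%, 38.4% and 62.9% of all genes in siMYCN, siHAND2 and the combined knockdown. The summed skeletal muscle markers spanned 3.72 to 5.09 CPM in siCtrl, 4.09 to 4.38 in siMYCN, 1.80 to 2.32 in siHAND2 and 1.24 to 1.87 in the combined knockdown. MYOG, the only 1 of the 5 markers with a mean of at least 1 CPM, was the largest part of this sum. It stood at 3.24 ± 0.633, 3.51 ± 0.124, 1.19 ± 0.135 and 0.730 ± 0.222 CPM in the same order. The sum, chiefly through MYOG, thus fell in the groups where CHRNA1 stood highest, and its part in the CHRNA1 values was not tested.

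Of the ionotropic glutamate receptor genes, GRIN2D had the largest rise under siHAND2 and under the combined knockdown. GRIN2D (chromosome 19, 48898132 to 48948189, plus strand), the GluN2D subunit gene known from early development, was measured at 10.7, 9.79 and 8.49 CPM in siCtrl, 15, 11.6 and 12.6 in siMYCN, 55.1, 37.5 and 32.2 in siHAND2 and 31.7, 42.4 and 29.1 in the combined knockdown. All siMYCN samples lay above siCtrl, and all siHAND2 and combined samples lay well above siMYCN and overlapped each other. The log2 change was 0.40 ± 0.16 in siMYCN (adjusted p = 0.0498), 1.97 ± 0.16 in siHAND2 (adjusted p = 2.7e-10) and 1.72 ± 0.16 in the combined knockdown (adjusted p = 5.1e-10). The siMYCN call was lost after rescaling (adjusted p = 0.054) and without siCtrl replicate 2 or 3 or siMYCN replicate 1 or 3 (adjusted p up to 0.205, log2 0.30 to 0.48 over the 6 fits).

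GRIN1 (chromosome 9, 140033609 to 140063215, plus strand) encodes GluN1, the subunit that every NMDA receptor contains. It stood at 3.06, 3.54 and 2.68 CPM in siCtrl, 5.33, 4.42 and 4.96 in siMYCN, 8.51, 6.83 and 7.17 in siHAND2 and 7.68, 6.45 and 6.17 in the combined knockdown. The siMYCN samples lay between siCtrl and the other knockdowns without overlap, and the siHAND2 and combined ranges overlapped. This gave log2 changes of 0.53 ± 0.12 (adjusted p = 0.0013), 1.06 ± 0.12 (adjusted p = 1.3e-07) and 0.92 ± 0.12 (adjusted p = 2.5e-07). GRIN3A, a subunit that lowers calcium permeability, rose in siMYCN from 2.77 ± 0.332 to 4.74 ± 0.887 CPM (log2 0.60, adjusted p = 0.00078), against 2.17 ± 0.116 in siHAND2 and 2.89 ± 0.462 in the combined knockdown. Neither was called as deposited, and in the combined knockdown rescaling gave a call (log2 0.32, adjusted p = 0.0496). GRIN3A was higher in siMYCN than in siHAND2 when compared directly (log2 0.85, adjusted p = 1.3e-05). GRIN2A and GRIN2B, the main GluN2 genes of the adult forebrain, averaged 0.0148 and 0.0133 CPM, and GRIN2C and GRIN3B were also not tested.

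Kainate receptor subunits are encoded by GRIK genes. GRIK2 (chromosome 6, 101846861 to 102517959, plus strand) was at 11.7, 10.8 and 10.6 CPM in siCtrl, 15.6, 12.5 and 15 in siMYCN, 24.2, 20.5 and 21.9 in siHAND2 and 20.8, 28.3 and 24.7 in the combined knockdown. The order siCtrl, siMYCN, then both other knockdowns held without overlap except between siHAND2 and the combined knockdown. Its log2 change was 0.35 ± 0.12 (adjusted p = 0.026), 0.95 ± 0.12 (adjusted p = 6.3e-07) and 1.08 ± 0.12 (adjusted p = 1.7e-08), the first being lost without siCtrl replicate 2 or 3 or siMYCN replicate 1 or 3 (adjusted p up to 0.127, log2 0.29 to 0.44 over the 6 fits).

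GRIK5, a subunit that needs a partner such as GRIK2, rose in siHAND2 from 6.81 ± 0.996 to 10.5 ± 3.17 CPM (log2 0.53, adjusted p = 0.0088), a value of 0.31 and no call without siHAND2 replicate 1, and no call without siCtrl replicate 3. GRIK5 stood at 8.78 ± 1.31 in siMYCN, called under the block (adjusted p = 0.03) and when the compared groups were fitted by themselves (adjusted p = 0.028), and at 7.93 ± 1.65 in the combined knockdown, called after rescaling (log2 0.50). GRIK3 had means of 20.4 ± 2.49, 25.2 ± 0.226, 25.6 ± 3.29 and 20.5 ± 4.44 CPM and was not called. In siMYCN it was called with the block (adjusted p = 0.029) and after rescaling, in siHAND2 after rescaling (log2 0.46), and in the combined knockdown its change of -0.01 became 0.34 and was called after rescaling.

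AMPA receptor genes were low. Because GRIA2 and GRIA4 passed the filter only through knockdown groups, their p-values here come from the fit of all genes without a filter. GRIA2, whose edited product keeps AMPA receptors nearly closed to calcium, stood at 0.868 ± 0.0333 CPM in siCtrl and 1.44 ± 0.0986 (siMYCN), 1.90 ± 0.604 (siHAND2) and 1.85 ± 0.124 (combined), with log2 changes of 0.39, 0.61 and 0.61 (adjusted p = 0.113, 0.014 and 0.0071). The siMYCN call of the filtered fit was also lost on leaving out any 1 sample, at log2 changes of 0.35 to 0.40. GRIA4 stood at 0.95 ± 0.191 and 0.976 ± 0.252 CPM in siCtrl and siMYCN and at 2.30 ± 0.314 and 2.75 ± 0.174 in siHAND2 and the combined knockdown, with log2 changes of 0.76 and 0.95 in the latter (adjusted p = 0.0024 and 0.00024). GRIA1 averaged 0.0298 CPM and GRIA3 0.642. GRID1, an orphan receptor of the delta class that binds cerebellins, fell in the combined knockdown from 13.7 ± 1.32 to 10.5 ± 2.42 CPM (log2 -0.38, adjusted p = 0.013). That call was lost after rescaling (-0.04) and without siCtrl replicate 1 or combined replicate 3 (-0.24 without the latter). GRIK1 and GRIK4 were not tested. Summed over the 18 genes, levels were 70.8 CPM (siCtrl), 89.6 (siMYCN), 129 (siHAND2) and 114 (combined knockdown). After rescaling these sums were 64.5, 82.2, 131 and 134, so the combined knockdown no longer lay below siHAND2.

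Metabotropic glutamate receptor genes summed to 6.98, 6.80, 7.68 and 6.39 CPM in siCtrl, siMYCN, siHAND2 and the combined knockdown. After rescaling the sums were 6.35, 6.23, 7.80 and 7.37, so the combined knockdown then lay above siCtrl. GRM4, a presynaptic receptor of group III, fell in siMYCN from 1.75 ± 0.203 to 1.04 ± 0.137 CPM (log2 -0.43, adjusted p = 0.013), rose in siHAND2 to 2.79 ± 0.717 (log2 0.45, adjusted p = 0.0084) and stood at 1.67 ± 0.202 in the combined knockdown. The siMYCN call was lost without siCtrl replicate 1 or siMYCN replicate 3, and the siHAND2 value was 0.30 and not called without siHAND2 replicate 1. Compared directly, siMYCN lay below siHAND2 by a log2 value of -0.88 (adjusted p = 1.1e-05). GRM2 was at 3.66 ± 0.369, 3.55 ± 0.758, 4.00 ± 0.720 and 3.76 ± 1.12 CPM and was not called. GRM3, GRM5, GRM6, GRM7 and GRM8 ranged from 0.00433 to 0.188 CPM over all samples and were not tested.

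GABA-A receptor subunit genes were the class in which the largest fall occurred. GABRA5 (chromosome 15, 27111866 to 27194358, plus strand), the α5 subunit of extrasynaptic receptors, stood at 17.2, 15.5 and 15.8 CPM in siCtrl, 9.58, 7.09 and 8.42 in siMYCN, 6.30, 5.65 and 5.60 in siHAND2 and 1.82, 1.48 and 1.10 in the combined knockdown. The 4 groups did not overlap, and the combined knockdown retained 9.08% of the siCtrl mean against 51.8% in siMYCN and 36.2% in siHAND2. On the log2 scale the changes were -0.88 ± 0.12 (adjusted p = 5.2e-06), -1.32 ± 0.12 (adjusted p = 4.3e-09) and -2.81 ± 0.12 (adjusted p = 1.4e-15).

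GABRB2 (chromosome 5, 160715436 to 160975131, minus strand), the β2 subunit, was measured at 2.89, 2.31 and 2.79 CPM in siCtrl, 1.13, 1.36 and 1.06 in siMYCN, 1.84, 1.68 and 1.83 in siHAND2 and 0.561, 0.596 and 0.341 in the combined knockdown. Again no groups overlapped. Its log2 changes were -0.74 ± 0.12 (adjusted p = 4.5e-05), -0.39 ± 0.12 (adjusted p = 0.012) and -1.29 ± 0.12 (adjusted p = 1.2e-09), and the siHAND2 call was lost without siCtrl replicate 1 or 3 (adjusted p up to 0.0603).

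GABRA3, the α3 subunit, had means of 9.46 ± 0.654, 12.1 ± 0.464, 7.68 ± 1.38 and 6.56 ± 1.82 CPM. It fell in the combined knockdown (log2 -0.50, adjusted p = 0.0036), with -0.18 and no call after rescaling and -0.29 without combined replicate 3. The siMYCN change of 0.33 was called on adding the replicate block (adjusted p = 0.022) and after rescaling. The 15 untested GABA-A genes had means of 0 to 0.749 CPM. With the lower limit of 0.2 CPM, GABRQ was called lower in the combined knockdown (log2 -1.15).

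The GABA-B receptor is a heterodimer of GABBR1, which binds GABA, and GABBR2, which couples to G proteins. Both genes were called higher in siHAND2, but only GABBR1 in siMYCN and, as deposited, in the combined knockdown. GABBR1 (chromosome 6, 29570005 to 29600913, minus strand) was at 3.30, 2.99 and 2.82 CPM in siCtrl, 7.12, 5.98 and 5.62 in siMYCN, 5.82, 4.97 and 5.88 in siHAND2 and 12.5, 11.8 and 10.4 in the combined knockdown. The single knockdowns overlapped each other, lay above siCtrl and lay below the combined knockdown. This gave log2 changes of 0.84 ± 0.12 (adjusted p = 4.2e-06), 0.70 ± 0.12 (adjusted p = 2.7e-05) and 1.63 ± 0.12 (adjusted p = 5e-12). GABBR2 had means of 1.00 ± 0.0976, 0.60 ± 0.186, 2.02 ± 0.253 and 1.16 ± 0.234 CPM. GABBR2 passed the filter only through its siHAND2 samples. It rose in siHAND2 by a log2 value of 0.59, a call that held in the fit of all genes without a filter. The siMYCN change of -0.33 was not called (adjusted p = 0.051) but passed under the block (adjusted p = 0.042) and after rescaling. In the combined knockdown GABBR2 was called after rescaling (log2 0.30).

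Glycine receptor genes were low and summed to 4.69, 4.68, 3.60 and 3.27 CPM (siCtrl, siMYCN, siHAND2, combined), and to 4.27, 4.29, 3.66 and 3.80 after rescaling. GLRB, the β subunit that anchors the receptor at synapses, fell in the combined knockdown from 3.09 ± 0.359 to 2.11 ± 0.399 CPM (log2 -0.40, adjusted p = 0.0066), a call that was lost after rescaling (-0.15). It stood at 2.73 ± 0.384 in siMYCN and 2.49 ± 0.123 in siHAND2. GLRA1, a ligand-binding subunit, was at 1.60 ± 0.392, 1.94 ± 0.0584, 1.10 ± 0.225 and 1.12 ± 0.0723 CPM and was not called against siCtrl. It was higher in siMYCN than in siHAND2 (log2 0.49, adjusted p = 0.0044). GLRA2 and GLRA4 averaged at most 0.00838 CPM.

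**Figure D3:**
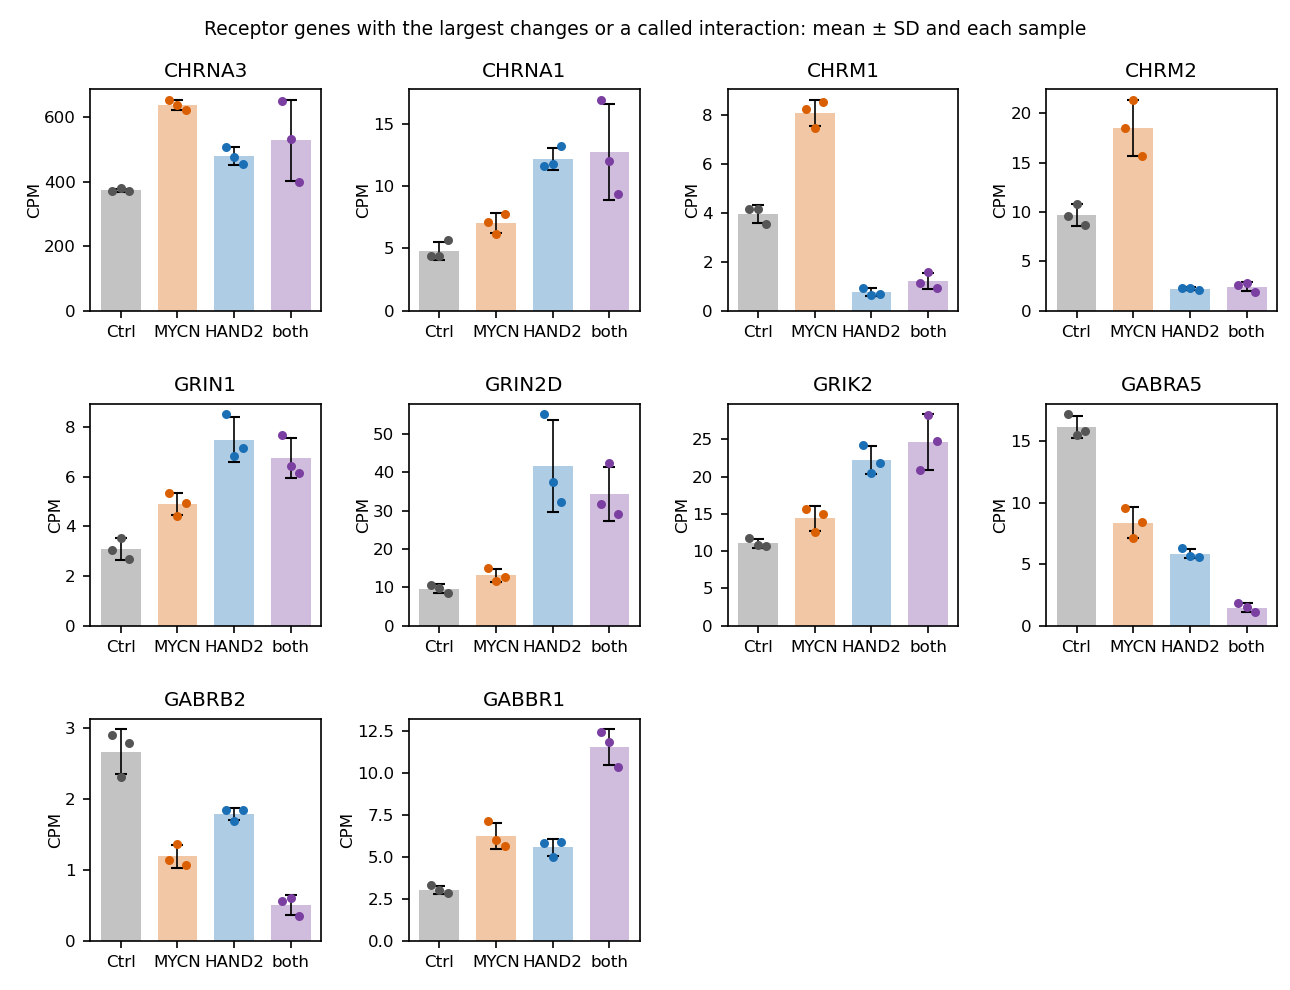
Level of 10 receptor genes with an absolute log2 change of at least 1 in any knockdown or a called interaction, in CPM on linear axes starting at 0. Bars are group means, error bars SD over 3 samples and points the samples, with Ctrl, MYCN, HAND2 and both for siCtrl, siMYCN, siHAND2 and the combined knockdown. GABRA5 and GABRB2 are lowest and GABBR1 is highest in the combined knockdown, while CHRM1 and CHRM2 in the combined knockdown stay near their siHAND2 levels.

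The combined knockdown was then set against each single knockdown. Against siHAND2, 8 of the 31 receptor genes were called, 3 higher and 5 lower, where 40.3% of all genes were called (8.75% higher and 31.5% lower). Higher were GABBR1 (log2 0.94, adjusted p = 9.9e-07), CHRNB1 (0.54, adjusted p = 0.0026) and CHRM1 (0.33, adjusted p = 0.041), and lower were GABRA5 (-1.48, adjusted p = 5.3e-09), GABRB2 (-0.90, adjusted p = 4e-06), GRM4 (-0.49), GABBR2 (-0.48) and GRID1 (-0.34). GRID1 lost its call after rescaling (-0.15), CHRM1 without siHAND2 replicate 2 or 3 or combined replicate 2, and GRM4 without siHAND2 replicate 1. GABBR2 had passed the filter only through its siHAND2 samples. After rescaling 11 were called, 7 higher and 4 lower, against 49.7% of all genes (26.1% and 23.6%). Against siMYCN, 21 were called, 9 higher and 12 lower, where 58.9% of all genes were called (8.92% higher and 50% lower). After rescaling 22 were called, 14 higher and 8 lower, against 56.6% of all genes (30.1% and 26.5%). The largest of these were the lower levels of CHRM2 (-2.50), CHRM1 (-2.04), GABRA5 (-1.93) and CHRNA7 (-1.21, rescaled -0.89) and the higher level of GRIN2D (1.32). Between the single knockdowns 20 were called, 11 higher and 9 lower in siMYCN, where 35% of all genes were called (26.1% higher and 8.98% lower). The largest were CHRM2 and CHRM1, given above, then GRIN2D (-1.57) and CHRNA7 (1.15).

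Whether the change in the combined knockdown differed from the sum of the single changes was tested by an interaction term. It was called for 5 of 31 receptor genes, all negative, where 4.01% of all genes were called (0.355% positive and 3.65% negative). Those described here had coefficients of -0.78 ± 0.18 for CHRM2 (adjusted p = 0.012), -0.66 ± 0.17 for GRIN1 (adjusted p = 0.025), -0.66 ± 0.19 for CHRNA3 (adjusted p = 0.047) and -0.60 ± 0.17 for GABRA5 (adjusted p = 0.0498). For CHRNA3 and GRIN1, which rose in both single knockdowns, the combined rise was smaller than the sum. For GABRA5, which fell in both, the combined fall was larger than the sum on the log2(CPM + 1) scale. CHRM2 had a siMYCN change above 0 and a siHAND2 change below 0, and the combined value lay below the sum. Of the 31 coefficients 28 were negative, and the median of all tested genes was itself -0.18. After rescaling 24 were negative and 5 genes were called, against 6.15% of all genes, with GRIN1 lost (-0.48, adjusted p = 0.055) and CHRNB2 gained (-0.36, adjusted p = 0.025).

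In the fit with a replicate block 11 receptor genes were called, where 10.1% of all genes were. On leaving out each of the 12 samples in turn, the count of called receptor genes ran from 1 to 12, being 12 without combined replicate 1, 8 without siHAND2 replicate 3 and 1 or 2 without any siCtrl or siMYCN sample or without siHAND2 replicate 1 or 2. The CHRM2 call was lost in 1 of 12 such fits (without siMYCN replicate 2, adjusted p = 0.0578), GRIN1 in 6, and CHRNA3 and GABRA5 in 9 each.

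**Figure D4:**
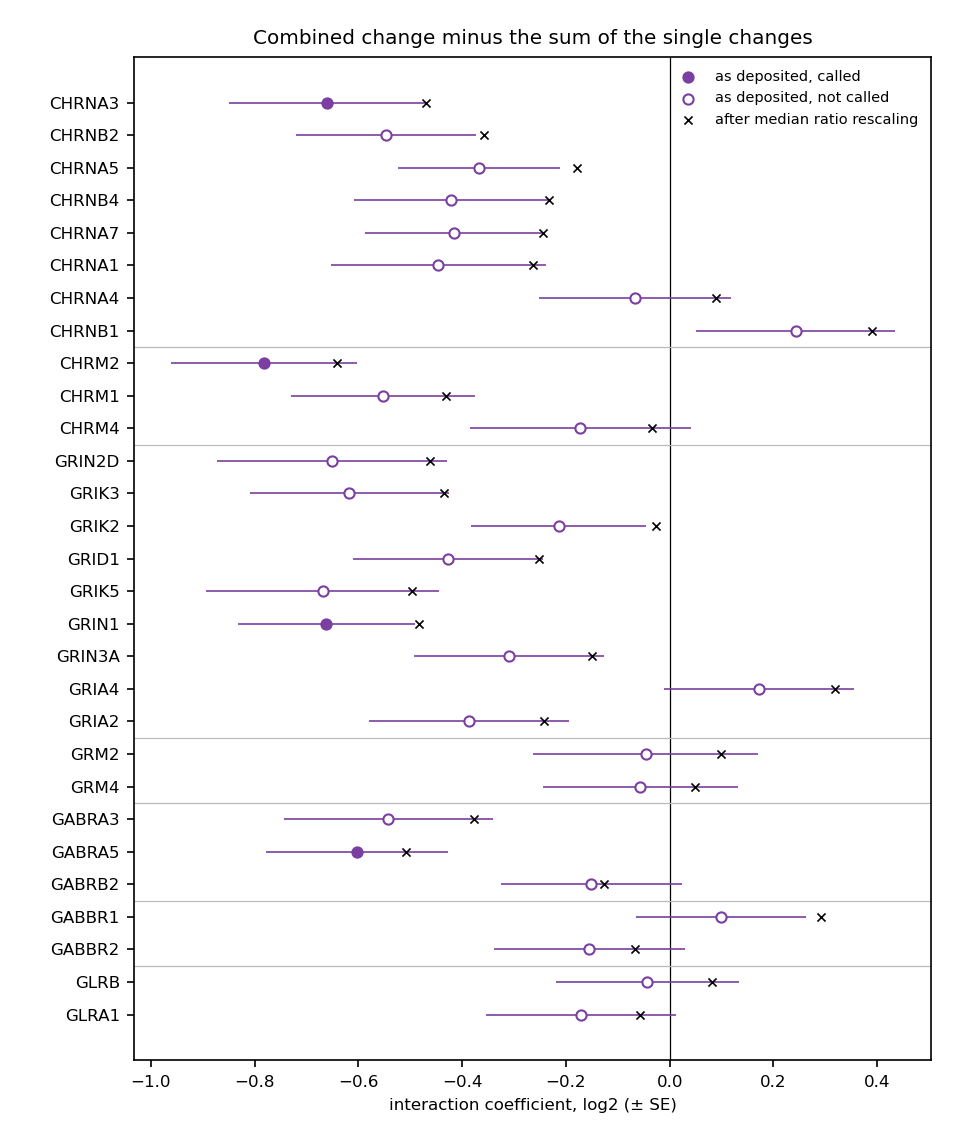
Interaction coefficient of 29 of the 31 tested receptor genes, which is the combined change minus the sum of the siMYCN and siHAND2 changes, in log2 units with its standard error. Filled circles passed the adjusted p threshold, and crosses give the value after median ratio rescaling. CHRM2 has the lowest coefficient at -0.78. After rescaling the coefficients of CHRM2, GRIN1, CHRNA3 and GABRA5 lie nearer to 0, at -0.64, -0.48, -0.47 and -0.51.

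Several receptor genes lie side by side in the genome, and neighbours did not always share a direction. On chromosome 15, GABRG3 begins 22070 bases beyond GABRA5 and was not tested. On chromosome 4, GLRB and GRIA2 lie 48492 bases apart on the same strand, and in the combined knockdown GLRB fell by 0.40 (lost after rescaling) and GRIA2 rose by 0.61. The CHRNA5, CHRNA3 and CHRNB4 genes had changes above 0 in all 3 knockdowns, under both scalings.

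Proteins that carry, anchor or modulate the receptors were taken from lists of partners. Their counts stand against the 33.7%, 42.7% and 67.4% of all genes called in siMYCN, siHAND2 and the combined knockdown, and their medians against 0.01, -0.14 and -0.28 as deposited and 0.01, 0.01 and 0.05 after rescaling. Of 28 listed partners of ionotropic glutamate receptors 18 were tested, of which 7 were called higher and 3 lower in siMYCN, 6 and 5 in siHAND2, and 5 and 8 in the combined knockdown (8 and 6 after rescaling). The shares called were 55.6%, 61.1% and 72.2%. Their median log2 changes were 0.22, 0.00 and -0.27, and 0.18, 0.17 and 0.12 after rescaling, so the combined median turned sign. GRIP1, a scaffold of AMPA receptors, fell from 21.4 ± 1.58 to 7.78 ± 0.376 CPM in siHAND2 and 5.47 ± 1.32 in the combined knockdown (log2 -1.35 and -1.81, adjusted p = 3.4e-09 and 2.8e-12). DLG3, a scaffold of NMDA receptors, rose in the same groups (log2 1.38 and 1.13, adjusted p = 2.4e-08 and 1.3e-07), as GRIN1 and GRIN2D did. NETO1, an auxiliary subunit of kainate receptors, fell in all 3 knockdowns (log2 -0.79, -0.62 and -1.36), whereas GRIK2 rose. Of 10 partners of metabotropic glutamate receptors 9 were tested, with 2 higher and 1 lower in siMYCN, 3 and 1 in siHAND2 and 4 and 2 in the combined knockdown, shares of 33.3%, 44.4% and 66.7%, and medians of 0.18, 0.18 and 0.20 (0.18, 0.32 and 0.53 after rescaling). The postsynaptic scaffold SHANK2 rose in all 3 (log2 0.53, 0.98 and 1.22). HOMER2 fell in siHAND2 and the combined knockdown (log2 -0.60 and -0.73, rescaled -0.39 in the latter). DLGAP2 rose in siMYCN (log2 0.65) and the combined knockdown (log2 0.59). However, DLGAP2 passed the filter only through those groups, with means of 1.66 and 1.57 CPM, against 0.694 for siCtrl and 0.903 for siHAND2. DLGAP2 is also among the 9 tested genes behind these counts and medians.

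Partners of GABA and glycine receptors numbered 14, with 11 tested, and were called 6 higher and 1 lower in siMYCN, 4 and 1 in siHAND2 and 4 and 3 in the combined knockdown (7 and 3 after rescaling), with shares of 63.6%, 45.5% and 63.6% and medians of 0.37, 0.14 and 0.19 (0.38, 0.29 and 0.53 after rescaling). PLCL1, which binds GABA-A receptors and their phosphatases, rose from 5.24 ± 0.381 to 23.2 ± 0.892 CPM in siMYCN (log2 1.95, adjusted p = 3.2e-12), 8.23 ± 0.730 in siHAND2 (0.56) and 18.3 ± 2.41 in the combined knockdown (1.62). KCTD12, an auxiliary subunit of the GABA-B receptor, fell in siHAND2 and the combined knockdown (log2 -0.86 and -1.71). GABARAP, which takes part in GABA-A receptor transport, rose in all 3 (0.60, 0.54 and 0.79). Of 14 nicotinic partners 9 were tested, with 4 higher and 1 lower in siMYCN, 2 and 3 in siHAND2 and 3 and 3 in the combined knockdown, with shares of 55.6%, 55.6% and 66.7% and medians of 0.13, -0.04 and -0.15. After rescaling 4 were higher and 2 lower in the combined knockdown, and the medians were 0.14, 0.10 and 0.17. AGRN, the organiser of muscle nicotinic receptor clusters, rose in all 3 (0.42, 1.05 and 1.54) and its receptor LRP4 fell in all 3 (-0.93, -0.50 and -1.65), while RAPSN and MUSK of the same pathway were under 1 CPM. TMEM35A, a chaperone needed for α7 receptors, rose in all 3 (0.99, 0.50 and 1.06), whereas CHRNA7 fell in siHAND2 and the combined knockdown.

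Genes that make or remove the transmitters were mostly low for GABA and mixed for acetylcholine. Of the listed acetylcholine genes, SLC5A7 stood at 0 in all samples, and ACHE and COLQ averaged 0.232 and 0.530 CPM, under the limit for testing. CHAT, which makes acetylcholine, fell from 33.5 ± 2.08 CPM in siCtrl to 26.6 ± 1.43 in siMYCN (log2 -0.32, adjusted p = 0.042) and 21.7 ± 4.57 in the combined knockdown (-0.62, adjusted p = 7.3e-05, rescaled -0.28). SLC18A3, its vesicular transporter, rose in siMYCN (0.48) and fell in siHAND2 and the combined knockdown (-0.52 and -0.65, rescaled -0.32 in the latter), with directions in all 3 as for CHRM1, CHRM2 and CHRNA7. BCHE, a cholinesterase, fell in siMYCN (-0.31) and the combined knockdown (-0.47, rescaled -0.14). Over the 7 acetylcholine genes 4 were tested, with 1 higher and 2 lower, 0 and 1, and 0 and 3 in the order siMYCN, siHAND2 and combined, and medians of -0.03, -0.10 and -0.55. The shares called were 75%, 25% and 75%, against the same shares of all genes as for the partners. After rescaling 0 were higher and 2 lower in the combined knockdown, and the medians were -0.03, 0.05 and -0.21. Of 10 glutamate genes 7 were tested, with 0 higher and 2 lower, 1 and 1, and 1 and 6 (1 and 3 after rescaling), shares of 28.6%, 28.6% and 100%, and medians of -0.08, -0.15 and -0.44 (-0.07, -0.02 and -0.15 after rescaling). SLC1A3, a glutamate transporter known from glia, fell from 8.46 ± 0.368 to 4.56 ± 0.469, 1.20 ± 0.499 and 0.589 ± 0.215 CPM (log2 -0.77, -2.13 and -2.58), and SLC17A7, a vesicular glutamate transporter, rose in siHAND2 and the combined knockdown (1.10 and 1.24). GAD1 and GAD2, which make GABA, averaged 0.0138 and 0 CPM. Of 10 GABA and glycine genes only ABAT, which breaks GABA down, and ALDH5A1 were tested. ABAT rose in all 3 knockdowns (0.65, 0.52 and 1.03), and ALDH5A1 was called lower in the combined knockdown (-0.42, rescaled -0.09).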

How the data were processed

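Expression was given as CPM per gene and sample, a value the authors computed and deposited. STAR 2.5.1 and Partek and the build hg19 are named per the submitters' processing notes, without their roles. The counting tool, its use of strand and the annotation are not given in the sources used here, so overlapping genes may share reads. The lowest deposited value, 0.0001, was taken as an added constant and subtracted from every value. CPM values below 20 reads were whole reads in 88.8 to 90.3% of cases (tolerance 0.05), under the 95% needed, so no count model was used.

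Groups came from the sample titles. Values were transformed as log2(CPM + 1), which understates the change of low genes, for the 12680 genes with a mean of at least 1 CPM. One limma 3.58.1 model (R 4.3.3, 4 groups, 12 samples, 8 residual degrees of freedom, trended prior) gave 7 two-sided contrasts, each adjusted by Benjamini-Hochberg over all tested genes. The 3 comparisons with siCtrl share its samples. On simulated data for siMYCN against siCtrl over 12680 genes, 98% of genes changed by a log2 value of 1 and 56% of those changed by 0.5 were recovered.

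Members and gene lists were chosen with earlier results of these data known. Sample values are given for genes called with an absolute log2 change of at least 1 in a knockdown, or with a called interaction; other genes are given by group means, and up to 3 genes per list are named. Alternatives covered pseudocount, filter, scaling, thresholds, trend, replicate block and each sample left out. Same-numbered samples of siCtrl and siMYCN deviated together in all 3 pairs (correlations 0.147 to 0.440), as did those of siMYCN and siHAND2 (0.137 to 0.330), so the block is given beside results of the first comparison where it changes a call. Some members counted here are not reported by name.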

Additional observations from a re-analysis of the deposited data

Results flagged for a closer look

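For the 4 receptor genes described here the effect of one siRNA differed according to the presence of the other, by a test of that difference itself (the interaction coefficient, limma with Benjamini-Hochberg adjustment over all genes). CHRM2 had a coefficient of -0.78 and changed by 0.86 in siMYCN and -1.72 in siHAND2, against -1.64 in the combined knockdown. GRIN1 had -0.66, with 0.53, 1.06 and 0.92, and its call was lost after median ratio rescaling. CHRNA3 had -0.66, with 0.77, 0.36 and 0.47. GABRA5 had -0.60, with -0.88, -1.32 and -2.81. None of the 4 was called under every alternative tried, and the median coefficient of all genes was -0.18.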

How the results depend on the processing

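Calls of receptor genes were recomputed under each alternative. A mean of at least 5 CPM left 12 (siHAND2) and 13 (combined) calls against siCtrl, 12 in the combined knockdown against siMYCN, 3 against siHAND2, and 10 between the single knockdowns, since fewer genes were tested. An absolute log2 change of at least 1 left 0, 6 and 8 calls against siCtrl (siMYCN, siHAND2, combined), 5 and 1 for the combined knockdown against siMYCN and siHAND2, 4 between the single knockdowns and 0 interactions. An adjusted p under 0.01 left 9 calls in siMYCN and 0 interactions. Without a filter 1 interaction was called, and it was none of those given above. Adjusting without a filter also ended, among others, the siMYCN calls of CHRNA1, CHRNA7, CHRNB2, GRIA2, GRIK2, GRIN2D and GRM4, the siHAND2 calls of CHRNA3, CHRNB2, CHRNB4 and GRIK5, and the combined calls of CHRNB4, GABRA3 and GRID1 against siCtrl. Leaving out single samples gave, against siCtrl, 9 to 14 (siMYCN), 15 to 21 (siHAND2) and 19 to 21 (combined) calls, 20 to 26 and 6 to 12 for the combined knockdown against siMYCN and siHAND2, 17 to 20 between the single knockdowns, and 1 to 12 interactions. With the replicate block 23 receptor genes were called in siMYCN, where 38.8% of all genes were, and 11 interactions against 5 without it, where the share of all genes was 10.1% against 4.01%; the cause was not tested. Numbers paired the samples by the data in 2 of the 6 pairs of groups. The change of GRIK3 in the combined knockdown turned from -0.01 to 0.34 with median ratio rescaling, with or without the replicate block, to 0.33 when scaled to the listed genes, and to 0.41 with rescaling and without combined replicate 3, an alternative chosen after seeing the data; the cause was not tested. Against siCtrl, 8 of 18, 13 of 20 and 15 of 21 calls held under all settings other than stricter thresholds. The calls that held in siHAND2 and the combined knockdown include GRIA2 and GRIA4, which passed the filter only through knockdown groups. Those that held in siHAND2 also include GABBR2, which passed it only through the siHAND2 samples.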
